A study of Mus musculus with 18 samples.

Results

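The regions described here are stretches of mouse DNA that lay outside every gene, more than 2.5 kb from any transcript start, and held an accessible chromatin peak in each of 18 retina libraries. They were chosen by the peak calls themselves. Peaks of all lists were merged where they shared at least 1 bp, and a merged region was kept if it was narrower than 1200 bp, was called in all 18 lists, and had its median summit at an intergenic position by that distance (mm10, GENCODE M21). This left 3884 of 99792 merged regions (3.89%), or 15.7% of the 24751 regions called in every list. Of those 24751, 9729 were outside genes and 4187 of these were also distal, 303 of them too wide to be kept. Being called in every library was the condition for entry, so it is not a result, and only the height of the peaks, their sequence and their neighbourhood are described.

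The libraries were made by ATAC-seq from bulk retina of wild-type (WT) mice, 1 library per retina. The 6 groups of 3 were formed by age and eye: at 3 months and at 18 months (3mo and 18mo), retinas of eyes in which pressure was raised for 1 hour to 30 mmHg (the IOP groups, for intraocular pressure), the contralateral eyes of such mice without raised pressure, and untreated retinas of mice given no pressure. Treated and contralateral retinas were taken on day 2 by the labels, whereas the study's text gives a later day. The protocol text attached to every library also describes dasatinib injection and immunoprecipitation, but no label names a drug group, and the methods of the study use a transposase on nuclei. The whole retina mixes rods, cones, bipolar, amacrine, horizontal and ganglion cells with glia, so fewer cells of a type and less accessibility per cell cannot be told apart in any value below. A contralateral eye belongs to an animal whose other eye was treated, and is therefore not an untouched control.

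The tissue label was checked on promoters. A peak within 1 kb of a transcript start was present in all 18 lists for 12 of 12 photoreceptor fate factors and for 21 of 21 rod phototransduction genes. The count was 6 of 11 for cone genes, 5 of 14 for bipolar cells, 7 of 18 for retinal ganglion cells and 10 of 16 for Muller glia. It was 5 of 16 for amacrine and horizontal cells and 5 of 10 for pigment epithelium. For lens genes it was 1 of 9, for vascular cells 1 of 10 and for astrocytes 1 of 6. None of 12 microglia promoters was called in all lists, and 10 of the 12 were called in no list. Among 16 genes of other tissues, 4 were called in all lists and 10 in none. The lists held 36011 to 66160 peaks. The longest, 3mo contralateral replicate 2, stood apart from the other libraries of its group, which held 39202 and 41499, and the shortest was 18mo IOP replicate 3. Depth in reads is not held by peak lists. The shortest listed peak was 79 to 89 bp in the 6 untreated lists and 114 to 157 bp in the other 12, so the untreated libraries also stand apart in a technical measure.

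Distal accessible regions include enhancers, which bind transcription factors and act on genes at a distance, and insulators, which bind CTCF, a zinc-finger protein that anchors chromatin loops. In photoreceptors the homeodomain factors Crx and Otx2 bind a TAATCC core and drive most genes of the visual cascade. Motif searches were run on both strands over the 200 bp around the median summit, and a match is a run of letters, not a shown binding site.

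Sequences of 12 regions are shown to make the kinds of element visible, each named by its nearest protein-coding gene, with the 200 bp around the median summit on the plus strand of mm10 and matches to TAATCC (or GGATTA, the same core on the other strand) and to the CTCF consensus in capitals. The first 3 have TAATCC matches and lie near genes of the photoreceptor lists. The thyroid hormone receptor gene Thrb is required for M cones, Otx2 sets photoreceptor fate, and Pdc encodes phosducin.
Thrb side, chr14:17431874-17432073: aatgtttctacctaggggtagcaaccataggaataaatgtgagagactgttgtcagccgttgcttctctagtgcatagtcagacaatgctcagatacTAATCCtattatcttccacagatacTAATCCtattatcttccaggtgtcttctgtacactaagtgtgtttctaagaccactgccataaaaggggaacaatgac
Otx2 side, chr14:48608996-48609195: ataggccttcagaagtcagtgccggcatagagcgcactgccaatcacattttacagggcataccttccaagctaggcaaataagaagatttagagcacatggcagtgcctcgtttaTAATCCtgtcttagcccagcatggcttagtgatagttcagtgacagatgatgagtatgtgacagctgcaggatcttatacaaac
Pdc side, chr1:150312860-150313059: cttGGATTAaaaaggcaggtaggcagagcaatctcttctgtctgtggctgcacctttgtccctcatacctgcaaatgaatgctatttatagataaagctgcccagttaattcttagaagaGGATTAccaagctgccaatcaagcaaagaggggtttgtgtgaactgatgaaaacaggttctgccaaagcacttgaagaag
The next 3 have a CTCF match and lie near Meis2, a homeobox gene, Mlana, a melanosome gene, and Rlbp1, which encodes the retinaldehyde-binding protein of Muller glia and pigment epithelium.
Meis2 side, chr2:115855897-115856096: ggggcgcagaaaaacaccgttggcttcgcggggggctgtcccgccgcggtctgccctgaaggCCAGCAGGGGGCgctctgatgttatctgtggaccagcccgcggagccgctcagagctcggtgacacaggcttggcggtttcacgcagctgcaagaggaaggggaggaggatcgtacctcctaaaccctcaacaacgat
Mlana side, chr19:29684215-29684414: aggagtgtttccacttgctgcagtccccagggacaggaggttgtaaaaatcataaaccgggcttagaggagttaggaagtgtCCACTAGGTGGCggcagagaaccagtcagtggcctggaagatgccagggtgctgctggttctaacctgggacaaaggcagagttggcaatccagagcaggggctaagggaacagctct
Rlbp1 side, chr7:79371565-79371764: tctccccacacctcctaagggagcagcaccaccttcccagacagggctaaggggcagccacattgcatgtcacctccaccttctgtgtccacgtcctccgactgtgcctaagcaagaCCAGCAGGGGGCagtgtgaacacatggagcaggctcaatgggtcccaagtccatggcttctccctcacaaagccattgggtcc
The region with the highest rank in the lists and the highest-ranked region that matches the mitochondrial genome have neither motif.
Rab10 side, chr12:3109872-3110071: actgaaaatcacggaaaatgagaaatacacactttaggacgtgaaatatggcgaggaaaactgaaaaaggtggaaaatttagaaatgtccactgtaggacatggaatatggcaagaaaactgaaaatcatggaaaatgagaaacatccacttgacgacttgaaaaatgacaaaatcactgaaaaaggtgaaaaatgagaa
Nxph1 side, chr6:9889908-9890107: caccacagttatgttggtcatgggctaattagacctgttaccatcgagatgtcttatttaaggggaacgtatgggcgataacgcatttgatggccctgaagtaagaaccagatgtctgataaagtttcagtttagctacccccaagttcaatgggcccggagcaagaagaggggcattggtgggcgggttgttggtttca
The last 4 had the largest changes in either direction in the comparison of ages (Bcl2a1a, Csf3r) and in that of IOP at 18 months (Cux2, Nlrp1b), all described further on.
Bcl2a1a side, chr9:89019554-89019753: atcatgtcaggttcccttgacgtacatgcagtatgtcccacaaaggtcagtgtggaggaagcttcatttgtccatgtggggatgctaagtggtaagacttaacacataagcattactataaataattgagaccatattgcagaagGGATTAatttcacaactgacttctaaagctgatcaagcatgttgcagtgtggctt
Csf3r side, chr4:125949801-125950000: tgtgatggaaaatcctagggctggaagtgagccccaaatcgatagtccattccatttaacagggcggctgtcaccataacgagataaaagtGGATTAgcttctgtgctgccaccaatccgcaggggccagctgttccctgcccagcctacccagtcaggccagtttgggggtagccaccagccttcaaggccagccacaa
Cux2 side, chr5:122062638-122062837: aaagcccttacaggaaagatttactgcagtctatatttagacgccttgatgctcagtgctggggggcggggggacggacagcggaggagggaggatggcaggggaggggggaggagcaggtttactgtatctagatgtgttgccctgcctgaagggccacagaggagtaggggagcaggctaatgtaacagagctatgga
Nlrp1b side, chr11:71389831-71390030: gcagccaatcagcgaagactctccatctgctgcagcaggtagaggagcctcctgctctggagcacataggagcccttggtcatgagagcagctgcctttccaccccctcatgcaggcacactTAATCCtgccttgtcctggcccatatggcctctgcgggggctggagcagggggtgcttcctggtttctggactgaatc

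The intergenic regions lay in the upper part of the peak lists. Their height was taken as the percentile of the deposited fold enrichment (pileup at the summit over the local background) among all peaks of the same list. The median over regions of the mean percentile was 66.2, with quartiles of 54.2 and 77.7. For comparison it was 63.1 in 5062 intronic regions called in all lists under the same width and distance limits, and 32.3 in 13606 intergenic regions called in 2 to 17 lists. Median percentiles of single libraries lay between 55.1 and 77.5, at the shortest and the longest list respectively. The intergenic set was above the intronic set in 15 of 18 lists, with differences from -0.8 to 6.5 points, and above the variable intergenic set in 18 of 18, by 26.5 to 38.9 points. Neither the height itself nor the second difference is independent of the selection, which asked for a call in every list. The intronic set was selected in the same way.

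**Figure D1:**
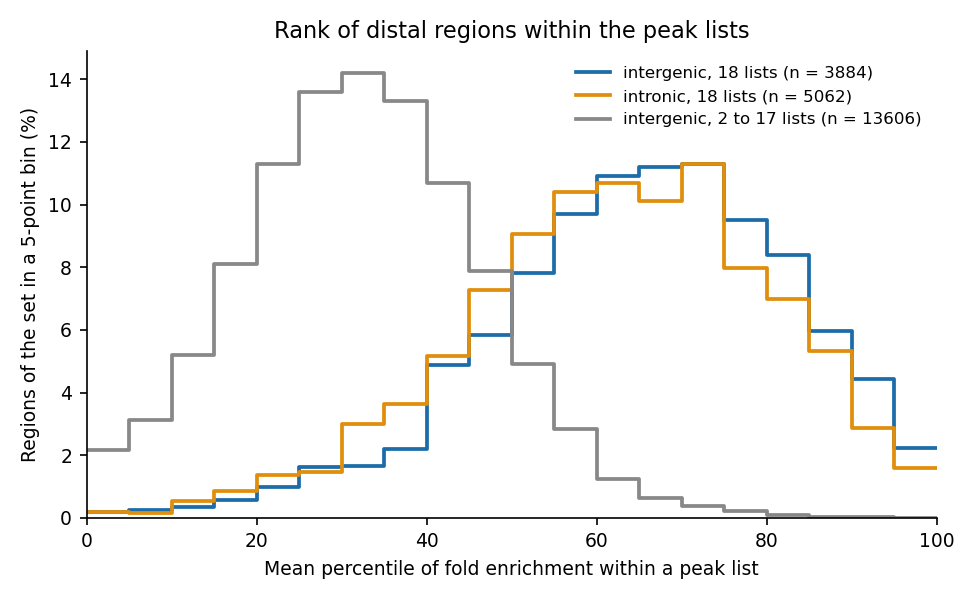
Share of regions (y axis, percent of each set) by the mean percentile of fold enrichment over the lists that called them (x axis, bins of 5 points), for 3884 intergenic and 5062 intronic regions called in 18 lists and 13606 intergenic regions called in 2 to 17 lists. The first 2 curves lie together with medians of 66.2 and 63.1, and the third is centred at 32.3.

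The regions were compact and close together in summit position. Their median width was 636 bp (quartiles 495.75 and 811), and the SD of the summit position over the 18 lists had a median of 32.8 bp. The median distance to a transcript start was 11520 bp (quartiles 6303 and 22470.75). Between 10 and 50 kb lay 1944 regions (50.1%), from 2.5 to 5 kb 653 (16.8%), and over 100 kb 54 (1.39%). The nearest protein-coding start lay downstream of 59.2% of them, so that the region was on its promoter side. GC content had a median of 52.5%, and 51.8% of the 3870 regions on assembled chromosomes held no masked repeat in the central 200 bp. The other 14 were on unplaced scaffolds.

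Density differed between chromosomes in parallel with all accessible regions. Chromosome 11 had the most, 324 regions or 2.73 per Mb, and chromosome X had 78, or 0.477 per Mb. Over all regions called in 18 lists the same chromosomes had 16.7 and 3.32 per Mb. The intergenic share of such regions ranged from 12.1% on chromosome 16 to 18.4% on chromosomes 15 and 18, apart from chromosome Y with 5 of 12.

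Neighbouring regions were a median of 146961.5 bp apart, and 496 gaps (12.9%) were no longer than 10 kb. There were 61 separate groups of 4 within 50 kb. The closest, chr6:47668246-47673742, spanned 4998 bp between its outer summits beside the small RNA gene Gm25283 and consisted of sequence repeated in the genome, since 96.5 to 100% of the 31-base words in its regions occurred more than once. The next, chr15:101238929-101246828, spanned 7067 bp near Nr4a1, an immediate-early nuclear receptor gene. It held unique sequence with mean percentiles from 20.5 to 90.9. The third, chr10:74936963-74944479, spanned 7154 bp near Gnaz, a G-protein gene, at percentiles of 15.4 to 40.1.

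The 3884 regions had 2777 different nearest protein-coding genes. Of these genes 2044 had 1 region, 706 had 2 to 4 and 27 had 5 or more. Pdia4 and Zfp536 had the most, 10 each. The regions near Pdia4, which encodes a protein disulfide isomerase, lay within 55.1 kb of chromosome 6 and had a median of 93.8% repeated words. Those near Ezh2, the Polycomb methyltransferase gene next to it, numbered 9 with a median of 100%. The regions near Zfp536, a zinc-finger gene, were of another kind: they spread over 515.7 kb of chromosome 7, had a median of 0% repeated words, and 6 of the 10 held TAATCC. Thrb had 7 regions over 255 kb, of which 3 held TAATCC and 1 a CTCF match, with mean percentiles from 16.9 to 90.5.

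Genes of known retinal roles were nearest to a small number of regions. The nearest gene is a position and not a shown target. Photoreceptor fate factors were nearest to 12 regions, which belonged to 5 of the 12 genes listed, and made up 0.309% of the regions against 0.573% of the intronic set and 0.228% of the variable intergenic set. Rod phototransduction genes were nearest to 10 regions (0.257%, against 0.316% and 0.14%), 5 of them with TAATCC. Retinal ganglion cell genes were nearest to 8 regions (0.206%, against 0.079% and 0.103%), 2 with TAATCC and none with CTCF. Muller glia genes were nearest to 9, none with TAATCC. Stress and senescence genes were nearest to 12, of which 3 held TAATCC. Eye field factors had 10 and amacrine and horizontal cell genes 7. There were 5 regions near microglia genes, 3 near bipolar cell genes, 3 near pigment epithelium genes, 2 near cone genes, 2 near lens genes, and 1 each near genes of astrocytes, of vascular cells and of other tissues.

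Single regions near these genes differed in height and in their spread over libraries. Values are given as normalised fold enrichment, which is the deposited fold after quantile normalisation of its log2 over the 24751 regions called in all lists. Upstream of Thrb by 228287 bp, the region at chr14:17431548-17432288 had values of 21, 19.7 and 21.2 in 3mo untreated and 18, 17.5 and 18.6 in 18mo untreated retinas. Its values were 11, 11.8 and 12.6 in 3mo contralateral, 11.7, 11.3 and 13 in 3mo IOP, 12.9, 12 and 12.4 in 18mo contralateral, and 12.1, 12.5 and 11.1 in 18mo IOP retinas. The untreated values were thus above all others with no overlap.

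Near Otx2 the region at chr14:48608513-48609320, 52836 bp from the start, ranged from 10.7 to 15.6 over the 18 libraries at a mean percentile of 89.4 ± 5.09 (SD, n = 18). The Pdc region at chr1:150312758-150313179, 6457 bp upstream, holds 2 TAATCC cores and a MEF2 match. It was nearly level, from 9.61 to 13.2, at a mean percentile of 83.9 ± 3.99 (SD, n = 18). Near Rgs9, which encodes the protein that ends the rod light response, chr11:109312068-109312571 stood at 93.3 ± 6.71. Near Nyx, the nyctalopin gene of ON bipolar cells, chrX:13461188-13462227 stood at 93.7 ± 2.68.

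Regions near the immediate-early gene Fos numbered 5. At chr12:85485610-85486528 and chr12:85454878-85456016, one on either side of the gene, the values ran from 9.18 to 12 and from 8.47 to 11.5. Near Socs3, an inhibitor of cytokine signalling, chr11:117925143-117926130 ran from 8.42 to 13.1. None of these regions passed the test for age or for IOP described below. The highest near ganglion cell genes was at chr8:33978490-33978969, 48864 bp from Rbpms, which encodes an RNA-binding protein used as a ganglion cell marker, at a percentile of 78 ± 10.5. The highest near Muller glia genes was chr4:136147598-136148581, 2936 bp beyond the start of Id3, an inhibitor of basic helix-loop-helix factors, at 75.4 ± 3.56.

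Matches to CTCF were more frequent in the intergenic regions than in the sets beside them. A CTCF match was present in 640 of 3870 regions (16.5%, 95% exact binomial interval 15.4 to 17.7%), in 11.7% of intronic regions called in all lists, in 8.11% of the variable intergenic regions and in 6.31% of the 73449 regions called in at least 2 lists. TAATCC was present in 774 (20%, interval 18.7 to 21.3%), against 27.5%, 14.7% and 15.4%. The intervals cover counting error only, treating regions as independent. The order of the sets for TAATCC was thus not that for CTCF, the intronic set being highest. GGGCGG, a core of SP and KLF factors, was in 13.2% against 8.14%, 6.95% and 18.7%, the last including promoters. The ETS motif CCGGAAG was in 2.25% against 1.19%, 1.06% and 3.77%. The other motifs are set against the same sets in the same order. E-boxes were in 17.4% (CAGCTG), against 17%, 18.7% and 17.3%, and in 19.4% (CAGATG), against 20.3%, 22.2% and 18.6%. The homeodomain core TAATTA was in 4.03% against 4.8%, 5.68% and 4.14%. The STAT motif, TTCNNNGAA, was in 4.55% against 4.31%, 5.16% and 4.4%. The AP-1 motif, searched as TGACTCA and with G at the centre as TGAGTCA, was in 4.6% against 4.09%, 6.08% and 4.72%. For nuclear receptors, TAGGTCA was in 3.28% against 4.11%, 3.29% and 3.01%. For NFI, TTGGCA was in 10% against 10.7%, 13.8% and 11.2%. For RFX factors, GTTGCCA was in 3.02% against 2.96%, 3.51% and 3.01%. For SOX factors, ACAATGG was in 1.68% against 2.17%, 2.86% and 2.12%. The MEF2 consensus was in 1.16% against 1.46%, 0.998% and 0.88%. No test was made of any of these shares.

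**Figure D2:**
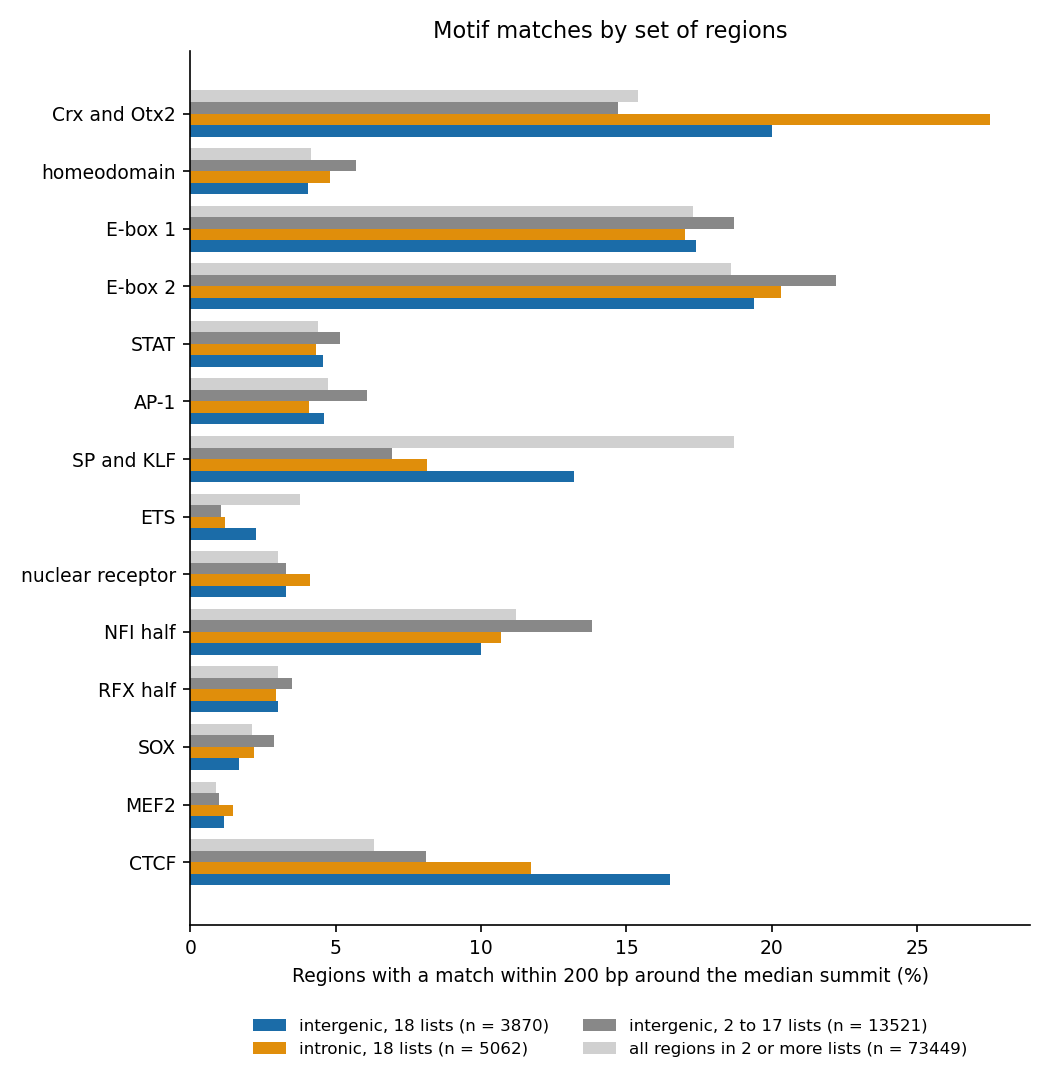
Share of regions (x axis, percent) with a match to each of 14 motifs (y axis) within 200 bp around the median summit, for the intergenic regions called in 18 lists, the intronic regions called in 18 lists, the intergenic regions called in 2 to 17 lists and all regions called in at least 2 lists; E-box 1 and 2 are the cores given in the text in that order. The CTCF bar is longest in the first set (16.5%) and the Crx and Otx2 bar in the second (27.5%).

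Both motifs lay near the summits. In the 400 bp around the median summit there were 661 CTCF matches, of which 91.1% had their centre within 50 bp of the summit. The matches fell on either side rather than at the summit itself, with 181 at 20 to 40 bp before it and 227 at 20 to 40 bp after it, against 84 and 71 in the bins next to it. TAATCC matches numbered 1239, with 57.5% within 50 bp, and their fullest bins, 174 and 176, adjoined the summit.

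**Figure D3:**
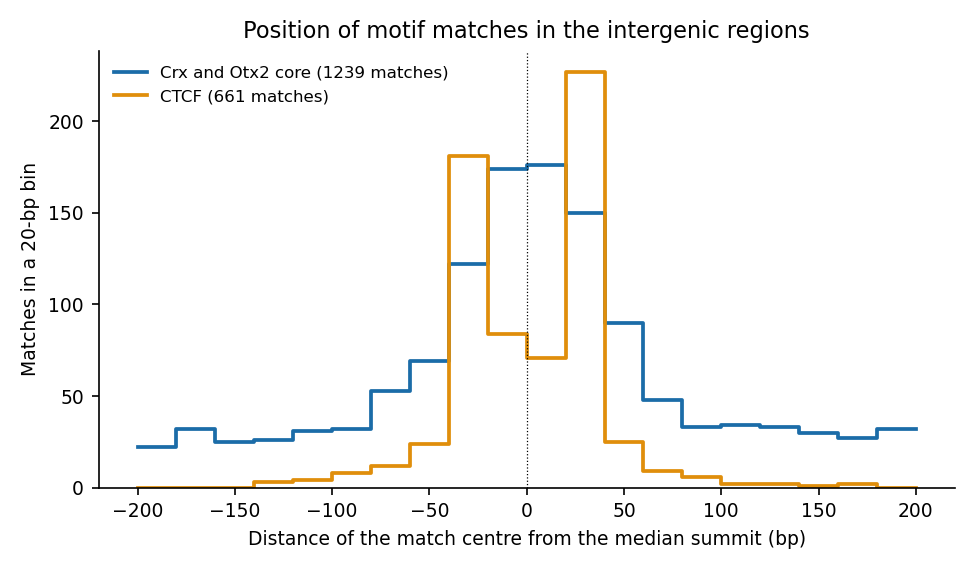
Number of motif matches (y axis, per bin of 20 bp) by distance of the match centre from the median summit (x axis, bp) in the intergenic regions. TAATCC matches (1239) peak at the summit, and CTCF matches (661) show a pair of peaks at 20 to 40 bp to either side.

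Regions with 1 of the motifs differed in other features. Only 46 regions held both, 728 held TAATCC alone, 594 CTCF alone and 2502 neither. TAATCC regions had a median percentile of 71.2 and a median width of 672.5 bp. CTCF regions had 64.5 and 598.5 bp. Masked repeats covered over 50% of the central 200 bp in 7.14% of the TAATCC regions and 0.842% of the CTCF regions. Between the lowest and the highest 10% of regions by mean percentile, the share with TAATCC went from 18.3% to 27.6%, that with CTCF from 16.5% to 9.3%, and that with GGGCGG from 11.6% to 22.7%. The CTCF share was highest in the middle of the range, at 21.4% for mean percentiles of 66.2 to 70.7. By distance it was 17.1% at 2.5 to 5 kb, 17% at 5 to 10 kb, 17.2% at 10 to 50 kb, 9.04% of 188 regions at 50 to 100 kb and 3.7% of 54 regions over 100 kb. The TAATCC share over the same bins was 18.7%, 17.4%, 20.6%, 27.7% and 37%. Both shares stood apart in the last 2 bins, which hold few regions.

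Of the 8 highest regions, 7 had over 50% of their 31-base words repeated in the genome. The highest was chr12:3109824-3110131, 27305 bp from Gm9075, with a mean percentile of 100. Its central 200 bp were fully masked, and the 31-base words in it had a median of 88 copies in the genome. The next, chr6:9889842-9890232 and chr12:97061366-97061845, matched the mitochondrial genome over 310 bp at 95.5% identity and over 365 bp at 99.7%. The other 5 of the top 8 were chr19:9665081-9665589, chr2:22744756-22745028, chr3:5860312-5860834, chrX:20317409-20317853 and chr6:49236392-49236673, at mean percentiles of 99.7 to 99.9, with 100%, 19.4%, 72.4%, 79.4% and 78.2% of their words repeated. Among all 3870 regions, 303 (7.83%) had over 50% repeated words, and 3188 (82.4%) had none. Reads from copies of a sequence cannot be assigned to 1 place, and how the authors treated such reads is not given in the sources used here. At the other end, chr17:47394206-47394788, 6167 bp from the start of the guanylate cyclase activator gene Guca1a, had a mean percentile of 2.19 with normalised fold values of 2.28 to 3.14, and all of its words were repeated. The lowest but 1, chr6:30179869-30180510, lay 7205 bp from the retinal noncoding RNA Rncr4, at 2.32. Both were called in every list at a low fold over their surroundings.

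The 3 regions farthest from a transcript start were chr8:90058652-90059281, 289265 bp from Tox3, chr6:9889842-9890232, 282846 bp from Gm5110, and chr2:178728469-178728918, 268005 bp from Cdh26. Close to the limits of the selection, the widest regions kept were 1198 bp (chr7:110164100-110165297) and 1197 bp (chr6:117879003-117880199), and the narrowest left out were both 1200 bp, at percentiles of 51.1 and 72.3. The shortest distances kept were 2502 and 2504 bp (percentiles 47.5 and 96.2), and the longest left out were 2500 and 2491 bp (7.53 and 91.4). Of regions called in 17 lists, the highest were chr6:18796498-18797024 at 86.5 and chrX:94625102-94625477 at 84.3. Both were missing from the shortest list, 18mo IOP replicate 3.

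The largest difference in height separated the 2 kinds of control. Untreated retinas of both ages were compared with contralateral retinas of both ages by limma on the normalised log2 fold over all 24751 regions. Of the 3884 intergenic regions, 1469 (37.8%) passed an adjusted p of 0.05, 759 higher and 710 lower in untreated retinas, beside 33.3% of all regions tested (17.5% higher and 15.8% lower). The libraries of the untreated groups have narrower peaks: the median width over the intergenic regions was 204 to 267 bp in their 6 lists and 331 to 469 bp in the other 12. With median centring in place of quantile normalisation 651 were higher and 798 lower, so which direction was more frequent depended on the scaling. With the shortest listed peak of each library as a covariate, 855 intergenic regions passed, 391 higher and 464 lower, beside 5286 of all 24751. Kind of control, this difference in the libraries and any batch cannot be told apart.

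The direction went with sequence. TAATCC was in 36.6% of the regions higher in untreated retinas, in 7.23% of those lower and in 18.5% of the rest. CTCF was in 5.81%, 17% and 19.8%, and MEF2 in 3.17%, 1.13% and 0.54%. These sets also differed in median GC content (50%, 54% and 52.5%) and in median width (720, 627 and 616 bp). Which of these features the direction follows was not tested. Of the 728 regions with TAATCC alone, 273 (37.5%) were higher and 43 (5.91%) lower. Of the 594 with CTCF alone, 40 (6.73%) were higher and 112 (18.9%) lower. Over all regions called in 18 lists the shares were near these. They were 39.6% higher and 4.41% lower for TAATCC alone, and 6.43% and 18.9% for CTCF alone. In intronic regions 45.8% of those with TAATCC alone were higher and 3.17% lower. The pattern is thus not particular to the intergenic regions. Per library, the median normalised log2 fold of TAATCC regions exceeded that of CTCF regions by 0.36 to 0.38 in the 6 untreated libraries. The difference ran from -0.03 to 0.08 in 3mo contralateral, from -0.05 to 0.02 in 3mo IOP, from 0.11 to 0.14 in 18mo contralateral and from 0.14 to 0.33 in 18mo IOP libraries. The untreated libraries did not overlap the rest.

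**Figure D4:**
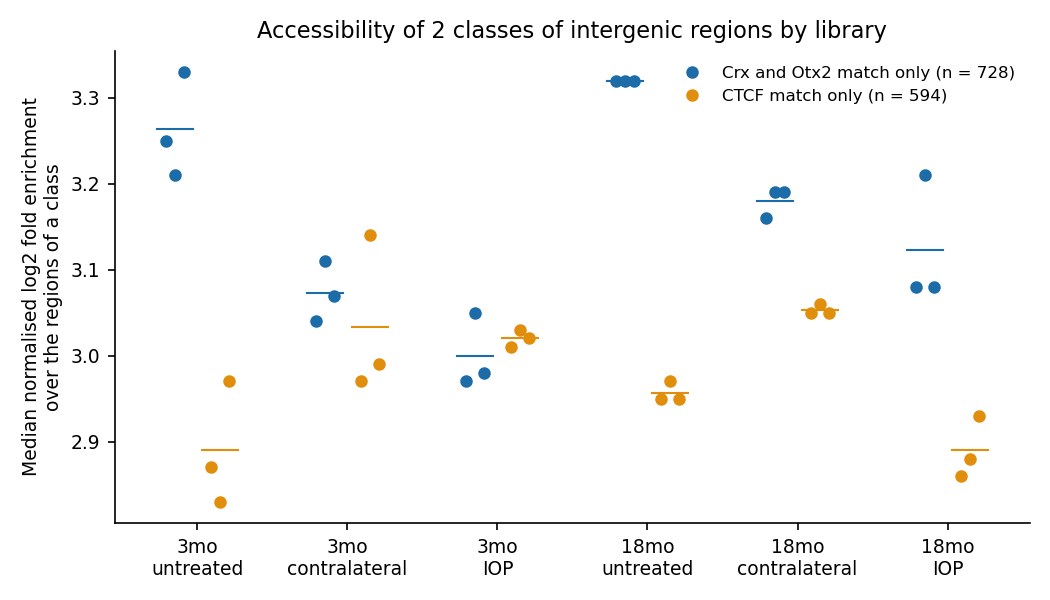
Median normalised log2 fold enrichment (y axis) in each of 18 libraries (points, with a line at the mean of 3) over 728 intergenic regions with a TAATCC match alone and 594 with a CTCF match alone, by group (x axis). The TAATCC medians lie 0.36 to 0.38 above the CTCF medians in the untreated libraries, and the CTCF medians of 18mo IOP (2.86 to 2.93) lie below those of 18mo contralateral retinas (3.05 to 3.06).

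Of the 4 regions with the largest higher values in untreated retinas, 3 had over 50% repeated words and 2 matched the mitochondrial genome. At chr2:69355480-69355686, upstream of the bile salt pump gene Abcb11, untreated values ran from 34.1 to 40.6 and contralateral values from 11.1 to 14.7 (log2 difference 1.56 ± 0.08 (SE), adjusted p = 1.28e-08 by limma with Benjamini-Hochberg adjustment). That region matched the mitochondrial genome over 129 bp, and 70% of its words were repeated. At chrX:143482944-143483177, near the kinase gene Pak3, the values were 30.6 to 40.6 against 10.8 to 15.7 (1.33 ± 0.1, adjusted p = 5.47e-07), with 21.8% of words repeated. The regions near G6pd2 (chr5:60042684-60043111) and Hmcn2 (chr2:31297777-31298237) followed at 1.03 ± 0.18 and 1.02 ± 0.13. Of the 4 with the largest lower values, 3 were unique sequence. At chr11:71389585-71390133, 159198 bp from the inflammasome gene Nlrp1b, untreated values ran from 4.42 to 7.26 and contralateral values from 9.92 to 13.1 (-1.07 ± 0.12, adjusted p = 2.87e-05). Near Cbfb, a partner of Runx factors, chr8:105152892-105153463 differed by -1.05 ± 0.13, and near the corepressor gene Tle4, chr19:14890506-14891250 by -1.02 ± 0.14. Near Prss2, chr6:41562777-41563630 differed by -1.05 ± 0.12, with all of its words repeated in the genome.

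Regions near retinal genes fell on both sides of this comparison. Among those named near each list, higher values in untreated retinas that passed the test were found near Thrb (0.67 ± 0.06, adjusted p = 3.9e-06 by limma), Otx2 (0.26), the photoreceptor and progenitor homeobox gene Rax (0.37), Rgs9 (0.34) and the retinal guanylate cyclase gene Gucy2e (0.43, all log2). A pair of regions upstream of the microglial receptor gene Trem2 also passed, at 0.42 and 0.6, but all of their words were repeated. Lower values were found near Trpm1, the cation channel of ON bipolar cells (-0.59), Tfap2a, an amacrine cell factor (-0.57), Rbpms (-0.53), the ganglion cell surface gene Thy1 (-0.48), Rlbp1 (-0.47), the endothelial gene Pecam1 (-0.53) and the bipolar cell factor gene Bhlhe23 (-0.27). Genes of a cell type did not all go 1 way. A region near the ganglion cell gene Nefh, described below for age, was higher in untreated retinas (0.4). Other named regions did not pass, among them those near Pdc (-0.07), Id3 (0.07) and the Muller glia gene Slc1a3 (-0.02). Over the whole lists, 6 of 12 regions near photoreceptor fate factors, 3 of 10 near rod genes, 4 of 8 near ganglion cell genes and 4 of 9 near Muller glia genes passed in either direction, beside 33.3% of all regions.

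Age was addressed by comparing 6 control retinas of 18 months with 6 of 3 months, each set made of 3 untreated and 3 contralateral libraries. Few intergenic regions passed the adjusted threshold. Of 3884, 22 (0.566%) passed, 18 higher and 4 lower at 18 months, beside 0.307% of all regions tested (0.206% higher and 0.101% lower). At an unadjusted p under 0.05 by limma there were 575, beside 3110 of all 24751 regions. Median changes were small, 0.04 over the intergenic regions and -0.01 over all regions on the log2 scale. In the intronic regions called in all lists the median was 0.05, and 0.415% passed, 17 higher and 4 lower at 18 months. The sizes of the 22 ran from 0.35 to 0.79. With untreated controls alone 1 region passed and with contralateral controls alone 0 (limma, 3 against 3, with 580 and 410 at an unadjusted p under 0.05). Over all regions 5 and 0 passed in these fits. The count depended on single libraries. Without 3mo contralateral replicate 2, the longest list, 80 regions passed, 72 higher and 8 lower, while the calls over all 24751 regions went from 76 to 313. Without 3mo contralateral replicate 3 it was 7, without 18mo untreated replicate 6 or 18mo contralateral replicate 3 it was 8, and without 18mo untreated replicate 5 it was 10. It was 11 without replicate 1 of either contralateral group and 14 without 3mo untreated replicate 5. Where the count fell to 14 or fewer, the calls over all 24751 regions fell to 24 to 43.

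Among the 18 regions with higher values at 18 months, chr9:89019366-89019962 had the largest change. It lies 62754 bp from Bcl2a1a, a gene of the anti-apoptotic Bcl2 family. Its normalised fold was 5.4, 9.28 and 10.2 (lowest, median and highest of 6) at 3 months and 11.5, 14.2 and 16.2 at 18 months, without overlap (0.79 ± 0.13, adjusted p = 0.012). Of its words 49.4% were repeated. Near Mtif3, which encodes a mitochondrial translation initiation factor, chr5:146977314-146977785 went from 4.98, 6.67 and 7.02 to 8.65, 10.7 and 11.8 (0.76 ± 0.11, adjusted p = 0.00788), again without overlap and in unique sequence with a TAATCC core. Near Zbtb8b, chr4:129406432-129406932 went from 4.4, 6.69 and 9.17 to 9.73, 11.9 and 13 (0.76 ± 0.1, adjusted p = 0.00474), with 81.2% of words repeated. The region at chr18:83958192-83958670, 126708 bp from the zinc-finger gene Tshz1, overlapped between ages at 5.05, 8.32 and 13.6 against 12, 12.4 and 19.2 (0.75 ± 0.13, adjusted p = 0.0208).

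Near a ganglion cell gene, 1 region passed. At chr11:4959306-4959970, 11518 bp upstream of Nefh, which encodes the heavy neurofilament chain of large axons, values were 4.77, 5.55 and 7.14 at 3 months and 5.46, 7.94 and 10.3 at 18 months (0.48 ± 0.09, adjusted p = 0.0322). The ranges overlapped. Other regions with higher values lay nearest to Acsl1 (0.7), Rnf44 (0.69), Trmt9b (0.58), Gm11007 (0.57), Igbp1 (0.56), Rnf19a (0.55), H2-Q1 (0.55), Gjb6 (0.52), Osbpl11 (0.52), Rmdn2 (0.52), Gtf2b (0.45), Cd47 (0.43) and Mfsd11 (0.38, all log2). Those near Gm11007, H2-Q1 and Cd47 consisted wholly of repeated words. TAATCC was present in 7 of the 22 regions and CTCF in 1.

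The 4 regions with lower values at 18 months had no repeated words. At chr4:125949534-125950177, 74649 bp from the granulocyte receptor gene Csf3r, values were 8.15, 9.61 and 12.3 at 3 months and 5.06, 6.03 and 7.15 at 18 months, without overlap (-0.75 ± 0.12, adjusted p = 0.0128). The change was -1.13 in untreated and -0.36 in contralateral libraries. At chr6:49217533-49218338, 3104 bp upstream of Igf2bp3, which encodes an RNA-binding protein, values were 6.76, 9.98 and 11 against 5.49, 6.65 and 8.02 (-0.54 ± 0.08, adjusted p = 0.00838). The lowest 3mo value was that of contralateral replicate 2. Near the neuropeptide receptor gene Vipr2, chr12:116146702-116147547 went from 5.88, 6.52 and 7.89 to 3.83, 4.95 and 5.36, without overlap (-0.51 ± 0.1, adjusted p = 0.0359). At chr6:100127318-100128362, 105240 bp from the Polycomb gene Rybp, the ranges overlapped (-0.35 ± 0.07, adjusted p = 0.0359).

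**Figure D5:**
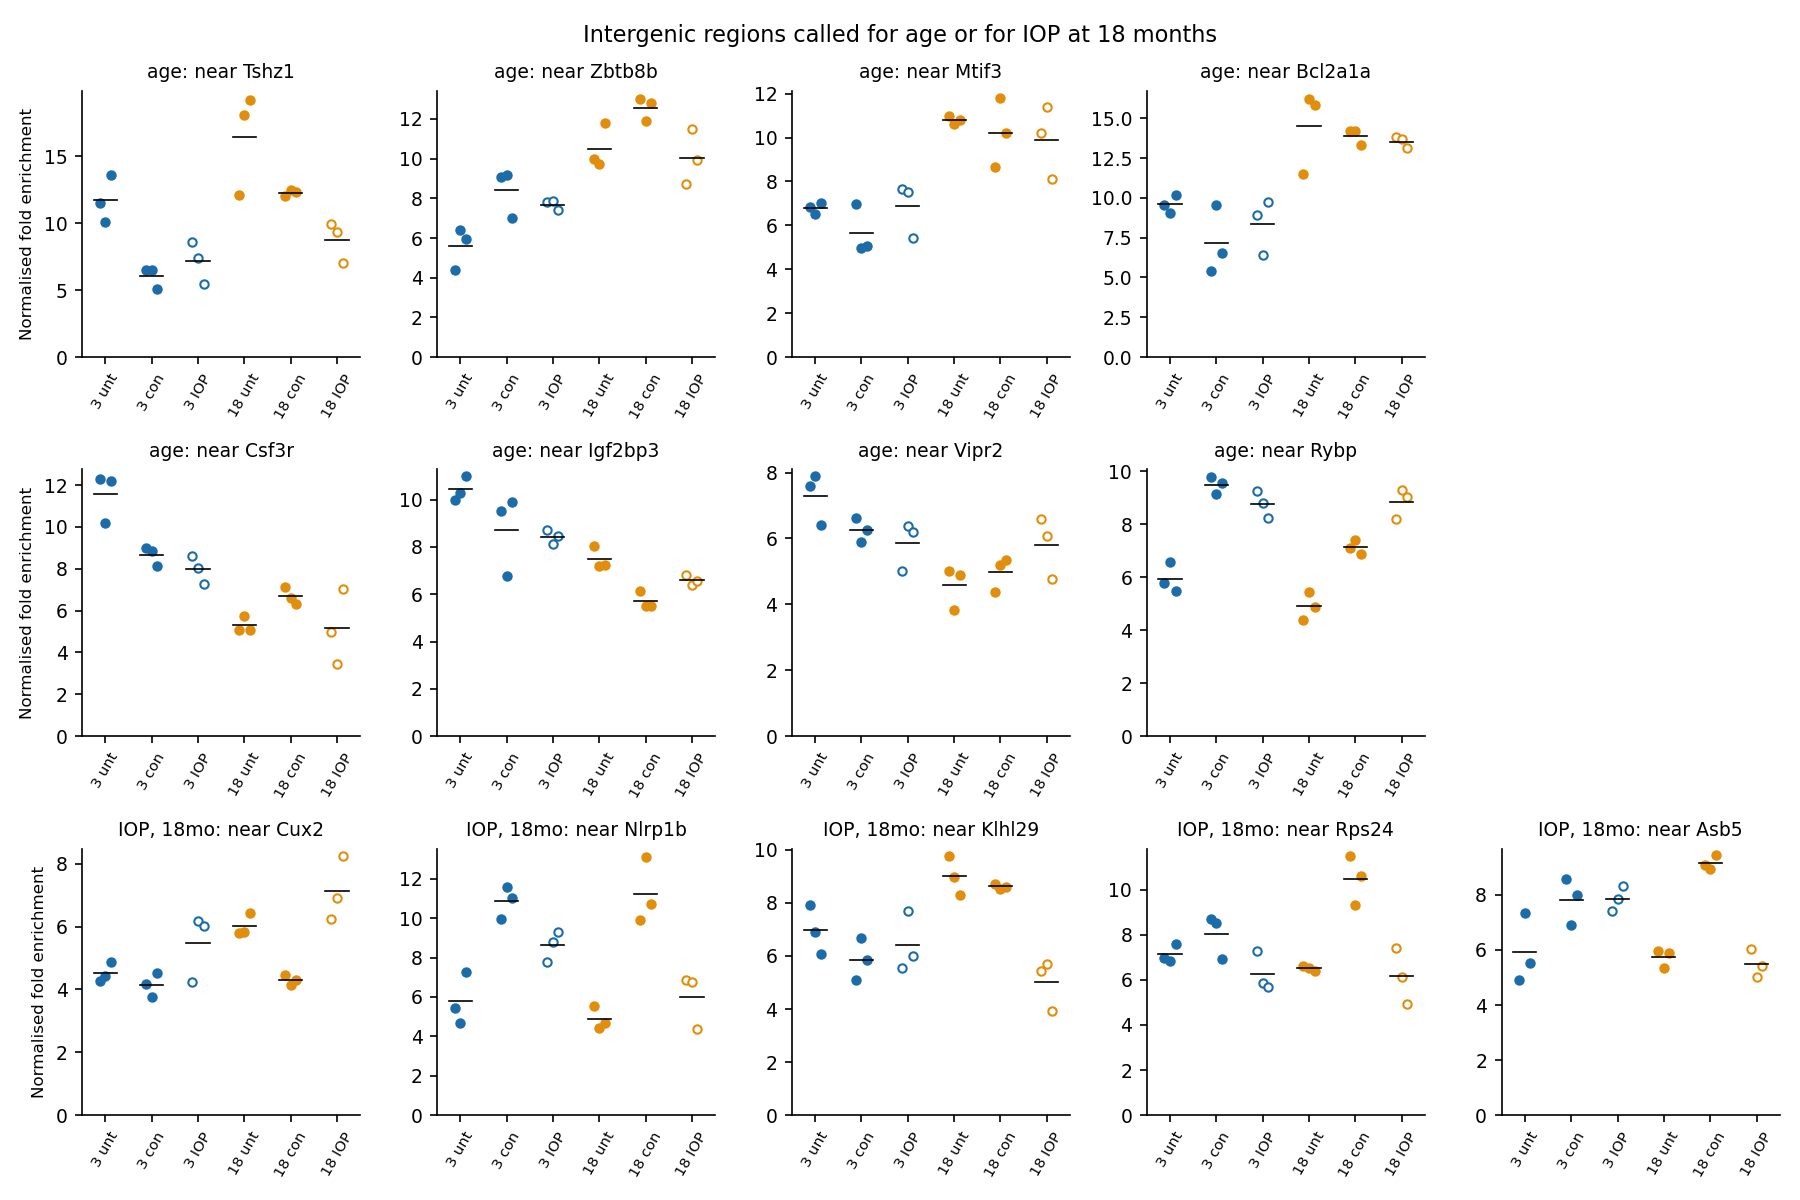
Normalised fold enrichment (y axis) in each library (points, with a line at the mean of 3) by group (x axis: 3 and 18 months, unt for untreated, con for contralateral) for the 8 regions named for age and the 5 named for IOP at 18 months, labelled by the nearest protein-coding gene; filled blue and orange points are controls of 3 and 18 months and open points IOP. Values near Mtif3 reach 7.02 at most in 3mo controls and start at 8.65 in 18mo controls.

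IOP was addressed by comparing treated with contralateral retinas at each age, 3 against 3. At 3 months 0 of the 3884 regions passed the limma test, with 205 at an unadjusted p under 0.05, beside 0.00404% of all regions called. The smallest p belonged to chr8:36376516-36377613, near Trmt9b, at 5.4, 5.86 and 5.52 in contralateral and 9.17, 7.91 and 10.8 in IOP retinas (adjusted p = 0.418). That of chrX:10345591-10346442, near the ornithine transcarbamylase gene Otc, followed at 8.86, 9.69 and 9.41 against 6.55, 6.8 and 6.8 (adjusted p = 0.452). Neither passed.

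At 18 months 7 regions (0.18%) passed, 1 higher and 6 lower with IOP, beside 0.121% of all regions (0.0444% higher and 0.0768% lower). At an unadjusted p under 0.05 by limma there were 568, beside 3119 of all 24751 regions. The direction depended on the measure. With median centring in place of quantile normalisation 0 were higher and 6 lower, beside 30 of all 24751 regions called. With −log10 q in place of fold 22 passed, 11 higher and 11 lower, beside 111 of all 24751. The median change was -0.08 over the intergenic regions and 0.02 over all regions. In the intronic regions called in all lists it was -0.05, and 0.257% passed, 8 higher and 5 lower with IOP. All 7 intergenic regions past the threshold had unique sequence. The labels do not say which treated and contralateral retinas came from the same animal. When libraries of the same age and replicate number were fitted as a block, 0 passed, also over all 24751 regions. The higher one, chr5:122062219-122063154, lies 12636 bp upstream of Cux2, a homeobox gene of neurons, and holds a MEF2 match. Its values were 4.45, 4.13 and 4.31 in contralateral and 6.25, 6.91 and 8.26 in IOP retinas (0.72 ± 0.13, adjusted p = 0.042), with 5.79, 5.83 and 6.44 in untreated retinas of that age.

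Of the 6 lower regions, the one with the largest change was chr11:71389585-71390133, on the Nlrp1b side. It had 9.92, 13.1 and 10.7 in contralateral and 6.88, 6.74 and 4.35 in IOP retinas (-0.93 ± 0.18, adjusted p = 0.047), with 5.55, 4.42 and 4.67 in untreated retinas. Far from Klhl29, by 612715 bp, chr12:5988179-5988613 had 8.72, 8.53 and 8.61 against 5.44, 5.71 and 3.93 (-0.8 ± 0.15, adjusted p = 0.0455), and 9.76, 8.99 and 8.31 untreated. Near the ribosomal protein gene Rps24, chr14:24578291-24579192 had 11.5, 9.31 and 10.6 against 7.42, 6.13 and 4.91 (-0.78 ± 0.14, adjusted p = 0.0345), and 6.63, 6.52 and 6.38 untreated. The untreated values thus fell among the IOP values at Rps24 and overlapped the contralateral values at Klhl29. Near Asb5, chr8:54507744-54508142, with a CTCF match, had 9.08, 8.94 and 9.46 against 6.02, 5.03 and 5.41 (-0.74 ± 0.12, adjusted p = 0.0322), and 5.96, 5.34 and 5.89 untreated. At chr6:29649756-29650218, near the nuclear import receptor gene Tnpo3, values were 10.8, 12.3 and 10.3 against 6.47, 6.74 and 7.69 (-0.67 ± 0.12, adjusted p = 0.0322), and 6.39, 5.91 and 7.26 untreated. At chr10:91187259-91188321, near Tmpo, which encodes a nuclear lamina protein, they were 7.75, 6.88 and 6.97 against 3.9, 4.56 and 5.7 (-0.62 ± 0.12, adjusted p = 0.0435), and 7.41, 7.49 and 7.84 untreated. In this set the untreated values overlapped or lay closest to the IOP values near Nlrp1b, Rps24, Asb5, Tnpo3 and Cux2, where the contralateral libraries stood apart from both other groups. They overlapped the contralateral values near Klhl29 and Tmpo. The comparisons of IOP and of kind of control share the contralateral libraries.

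The count at 18 months depended on single libraries. Without 18mo contralateral replicate 2 or 3, 0 regions passed by limma (616 and 459 at an unadjusted p under 0.05), and 1 passed without replicate 1 of that group. Leaving out 18mo IOP replicate 2 or 3 left 2. Libraries of other groups enter through the shared estimate of the spread and through the quantile normalisation, which was redone in each fit. Thus 1, 2 and 3 passed without 18mo untreated replicates 4, 5 and 6. It was 3 without 3mo untreated replicate 4, and 3 and 4 without 3mo contralateral replicates 1 and 3. Over all 24751 regions, 2 to 27 were called in these fits, against 30 with every library. With the shortest listed peak as a covariate 2 passed, beside 22 of all regions. The regions with a CTCF match alone had a median change of -0.15 at 18 months and -0.01 at 3 months, and those with TAATCC alone -0.04 and -0.05. The difference of the IOP effect between the ages, tested as an interaction, was past the threshold for 0 of 3884 regions (limma, 251 at an unadjusted p under 0.05; 0.0% of all regions called). Near Tnpo3, chr6:29649756-29650218 had the smallest p for it, with changes of 0.13 at 3 months and -0.67 at 18 months (adjusted p = 0.898). Next came chr3:90373219-90373833, near the fatty acid transporter gene Slc27a3, also at an adjusted p of 0.898. An effect of IOP that differed between ages was therefore not shown for any of these regions.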

How the data were processed

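ATAC-seq peak lists of 18 retina libraries were used, 1 list per library. Per the submitters' notes, reads were aligned with STAR 2.7.8a to mm10, and the authors called peaks with MACS2, on each library separately. The deposited score is the peak caller's integer score, and the deposited fold is a ratio, summit pileup over local background. The deposited −log10 q values served for ranking and as alternatives. Read depth is not given by these lists, and handling of multi-mapping reads is not given in the sources used here. Fold depends on depth and on local background.

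Regions were merged and annotated in Python 3.11.15 with the comprehensive GENCODE M21 gene set. In each region and list the peak with the highest fold was taken. Its log2 was quantile-normalised over the 24751 regions called in all lists and fitted in limma 3.58.1 (R 4.3.3) with 6 group means, and p-values were adjusted by Benjamini-Hochberg over all regions. The test was also run on simulated data, in which residuals were permuted within each region. That removes shifts shared by the regions of a library, so the simulation could not test for them. Each library is 1 retina, and replicate numbers are those of the labels; the names of the untreated lists carry some other numbers, which were not used. The labels do not say that the libraries of a group come from separate animals, and p-values then measure the spread between these libraries. Mitochondrial matches of at least 100 bp were found with blastn 2.17.0. Word copies were counted in GRCm38.p6 for words of 31 bases. Members, gene lists and motifs were chosen with earlier results of these data known. Regions named were the 8 highest and 2 lowest by mean percentile, up to 4 with the largest change per direction and contrast (2 with the smallest p where none passed), up to 3 near each gene list, those at the limits, the 3 farthest and the 3 closest groups. Other regions past the threshold for age or IOP are named too, chosen after their values were seen, as are genes with several regions.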

Additional observations from a re-analysis of the deposited data

Results flagged for a closer look

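In the region 3104 bp upstream of Igf2bp3 (chr6:49217533-49218338), 1 of the 6 controls of 3 months lay far from the rest: 3mo contralateral replicate 2 had a normalised fold of 6.76, and the other 5 lay between 9.53 and 11. The gap was 0.653 of the whole range, above the critical value of Dixon's test for 6 samples. It was the single such value among 24 sets of 6 controls examined, where chance gives about 5%. The library is the longest list, and its part in the value was not tested.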

How the results depend on the processing

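The number of regions called for age (22) was 64 with −log10 q in place of fold, beside 292 of all 24751 regions. It was 0 with contralateral and 1 with untreated controls alone, beside 0 and 5 of all regions. When 1 library was left out it was 7 to 80, beside 24 to 313 of all regions. A replicate block, the replicate number of the labels as a term in the limma fit, was also tried. The count was then 0 for age and 0 for IOP at 18 months, beside 2 and 0 of all 24751 regions. The smallest adjusted p of an intergenic region in these limma fits was 0.0612 and 0.16. The blocks differed. For IOP a block joined a treated and a contralateral library of the same age and number. For age it joined control libraries of both ages with the same number, which cannot come from 1 animal. The labels tie no replicate number to an animal, so the numbers were not taken as pairs. Deviations of same-numbered contralateral and IOP libraries correlated at r from -0.313 to 0.356. Libraries with different numbers ranged from -0.448 to 0.443, so these correlations cannot decide the pairing. For IOP at 18 months (7) the count was 22 with −log10 q, beside 111 of all 24751 regions. With the shortest peak as covariate it was 2, beside 22 of all. Without the lowest 25% of regions it was 3, beside 16 of the 18563 kept. When 1 library was left out it was 0 to 9, beside 2 to 47 of all regions. For IOP at 3 months it was 1 with −log10 q, beside 16 of all 24751 regions. The count for kind of control was 855 with the shortest peak as covariate, beside 5286 of all regions. When 1 library was left out it was 1265 to 1490, beside 6923 to 8637 of all regions. The count for the interaction was 0 under every alternative run, beside 0 to 2 of all regions. The number of regions selected (3884) was 4721 when 17 lists sufficed, 2958 when a −log10 q of at least 5 was asked for, 400 when peaks had to cover at least 50% of the region and 3886 to 4102 when 1 library was left out. The CTCF share was 15.1% in 100 bp. The TAATCC share was 15.2% in 100 bp, 25.6% in 400 bp and 21.6% for regions over 10 kb from a transcript start. The median percentile was 62.5 when ranked by q. With at most 50% repeated words, an alternative chosen after seeing the data, 18 regions were called for age and 7 for IOP at 18 months. The causes were not tested. Peak lists carry no read depth, so a missing call cannot be told from a shallow library.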
